A study of Mus musculus with 8 samples.

Results

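The genes described here encode the enzymes that cut proteins of the extracellular matrix and of the cell surface, together with the inhibitors that restrain them. They were taken by symbol: every gene whose name is Mmp, Timp, Adam or Adamts followed by a number, plus the plasminogen activators Plat and Plau and the membrane-anchored inhibitor Reck. The rule found 80 genes of the 22180 named genes on the array, from 86 probe sets. Values are log2 probe set values as the authors deposited them, and each gene stands for its brightest probe set by the mean of the 8 arrays. The cells were hippocampal neurons of C57BL/6J mice, an inbred laboratory strain, dissected at E18.5, late in embryonic life, and grown for 11 days in vitro. Of 8 arrays, 4 came from untreated cultures and 4 from cultures exposed to 55 mM KCl for 4 h. Every culture, untreated ones included, had been fed with medium holding AraC, which kills dividing cells, and the labels name no genetic change in either group. Each array carried a mouse number of its own, and the titles number the arrays 1 to 4 within each group.

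Matrix metalloproteases (MMPs) are zinc enzymes that cut collagens, proteoglycans and other matrix proteins, and the tissue inhibitors of metalloproteases (TIMPs) block them. ADAMs sit in the cell membrane and release the outer parts of growth factors, receptors and adhesion proteins, whereas ADAMTS enzymes are secreted and include the proteases that cut the large proteoglycans surrounding neurons. In the brain these enzymes, with the serine protease tPA encoded by Plat, are known for remodelling the matrix around synapses. Raised potassium depolarises neurons and lets calcium in, which mimics strong synaptic drive in a dish.

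The 12 neuron markers examined were all brighter than the median gene, and their mean log2 value lay between 8.77 and 9.56 on the 8 arrays. The cultures also held other cells: the mean of 10 astrocyte markers was 8.36 to 9.28 in untreated and 8.37 to 9.03 in KCl arrays, with 9 of them brighter than the median gene and 1, the glutamate transporter Slc1a2, lower after KCl in limma (adjusted p = 0.0479, 0.062 with the array number as a block). The block gave calls to 2 other markers, the GABA synthesis gene Gad2, lower (adjusted p = 0.0458, 0.832 without the block), and the progenitor gene Pax6, higher (0.0461, 0.545 without the block). Of 9 microglial markers 1 was brighter than the median gene (list mean 4.35 to 4.44 in untreated and 4.21 to 4.53 in KCl arrays), and of 9 oligodendrocyte lineage markers 3 were (4.77 to 4.90 and 4.72 to 4.93). The mean of 9 progenitor and cycling markers was 5.28 to 5.82 in untreated and 5.65 to 6.28 in KCl arrays, with 1, the replication factor Pcna, higher after KCl with or without the block. In such bulk RNA, fewer cells of a type and less RNA per cell cannot be told apart. Arrays of the same number resembled each other across groups, so values from a fit with the array number as a block are given where that fit changed a call of a gene named here. The labels do not say what that number stands for.

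Few of the protease and inhibitor genes were called changed, and few of all named genes were. After KCl none of the 80 rose and 1 fell, the ADAM family member Adam4, at an adjusted p under 0.05 in limma, and 79 did not pass. That is 1.25% of the 80, while 2.36% of all named genes passed, 1.34% higher and 1.02% lower. With the array number as a block, 1 gene rose, the proteoglycan-cutting protease Adamts1, and none fell, while 4.44% of all named genes passed, 2.43% higher and 2.01% lower. An unadjusted p under 0.05 was reached by 3 of the 80 genes (3.75%, against 13% of all named genes), or by 10 with the block (18.2% of all named genes). The 4 KCl values lay entirely to one side of the 4 untreated values for 5 of the 80, or 6.25%, against 8.16% of all named genes. The median log2 change was 0.00 over the 80 and -0.01 over all named genes, and the median size of the change, regardless of sign, was 0.11 and 0.12. Of the 80, 63 changed by less than 0.2 on the log2 scale in either direction, and Adamts1 alone by more than 1.

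Many of the family were dim: 53 of the 80 had a mean at or below that of the median gene, where RMA values compress differences. None of those 53 passed, and 0.261% of the dimmer named genes did. Among the 27 brighter members the median size of the log2 change was 0.16, against 0.21 over the 11090 named genes above the median gene. Of those 27, 1 passed (3.7%), against 4.46% of the brighter named genes. That gene was Adam4, which counted as brighter through its untreated arrays. Its mean was 5.33 in untreated and 4.51 in KCl arrays, against 4.76 for the median gene. Probe sets differ in response, so placing a gene above or below the median gene is only a rough guide. No level of one gene is otherwise compared with that of another.

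**Figure D1:**
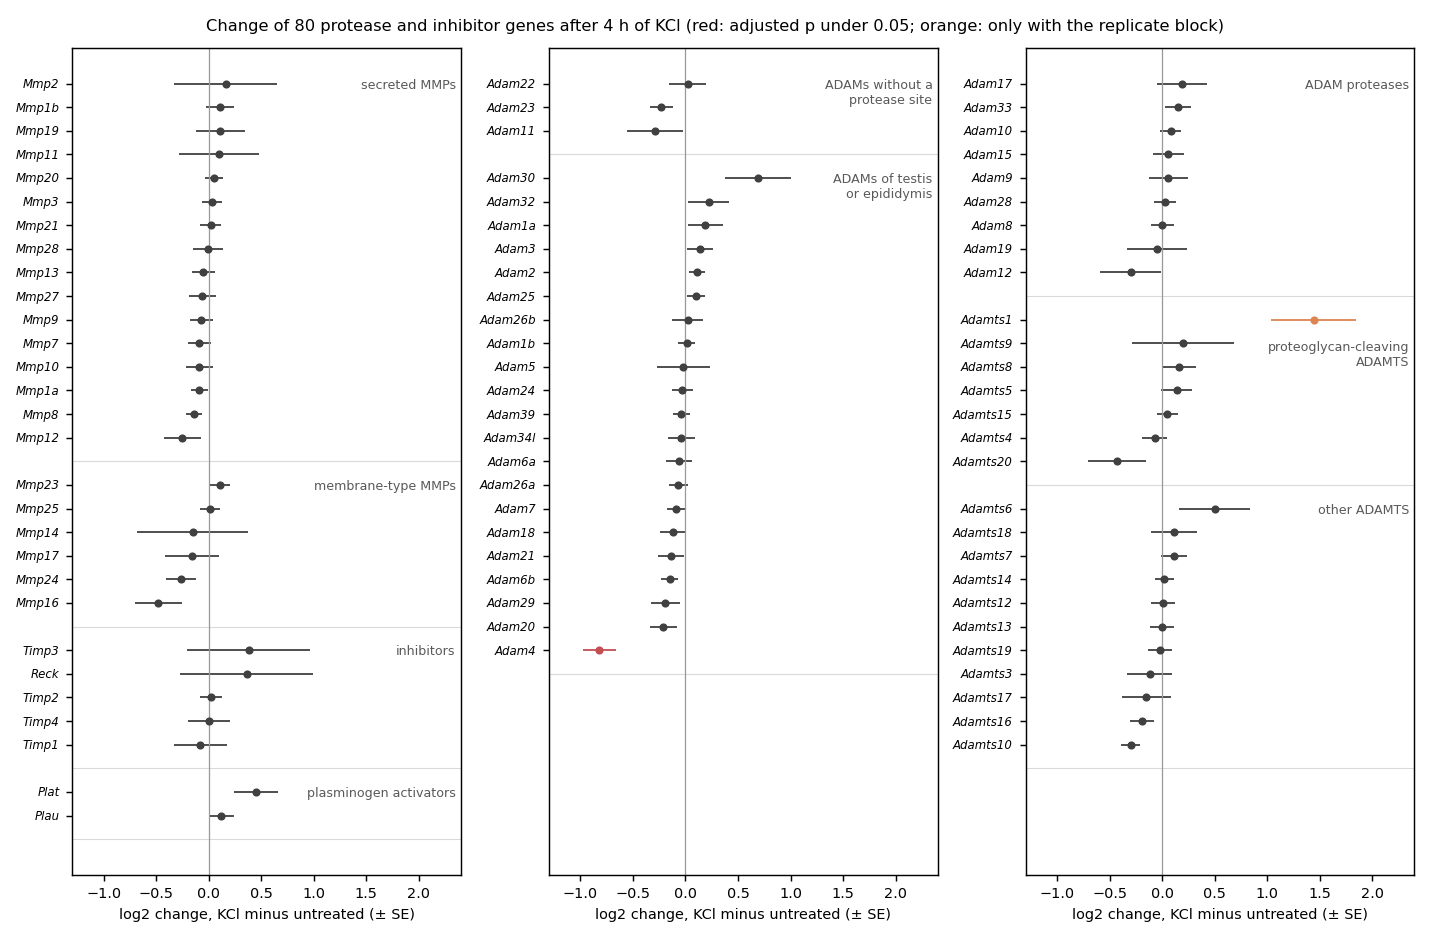
Log2 change after 4 h of KCl for the 80 protease and inhibitor genes, one point per gene with its moderated standard error, arranged by role. Adam4 (red) lies at -0.82 and Adamts1 (orange) at 1.44, and 63 of the 80 points lie within 0.2 of zero.

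Adamts1 had the largest change of the 80. It encodes a secreted protease that cuts aggrecan, versican and related proteoglycans. Its log2 values were 7.63, 8.10, 6.55 and 6.16 in untreated arrays 1 to 4 and 8.44, 8.84, 8.65 and 8.25 in KCl arrays 1 to 4. All 4 KCl values lay above all untreated values, and the untreated arrays were spread over a much wider range than the KCl arrays. The means were 7.11 ± 0.903 and 8.55 ± 0.255 (SD, n = 4 each), a 2.71-fold difference with a 95% interval of 1.44 to 5.1. Over all genes this did not pass in limma (adjusted p = 0.13), but it did with the array number as a block (adjusted p = 0.0372, higher in 4 of 4 same-numbered pairs). The difference within pairs was 0.82 and 0.74 for numbers 1 and 2 and 2.10 and 2.09 for numbers 3 and 4. The call with the block was lost when any one of the 4 pairs was left out (adjusted p of 0.0505 to 0.142), with 3 pairs then remaining.

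The RefSeq promoter of Adamts1 is printed because this was the one gene of the set with a change of that size. The 250 bases before its annotated start lie on the minus strand at chr16:85803114-85803363 of GRCm38.p6. They hold neither TGANTCA, the binding motif of AP-1 factors, nor TGACGTCA, the full cyclic AMP response element, on either strand, so no base is in capitals. Partial forms of these motifs were not searched.
Adamts1: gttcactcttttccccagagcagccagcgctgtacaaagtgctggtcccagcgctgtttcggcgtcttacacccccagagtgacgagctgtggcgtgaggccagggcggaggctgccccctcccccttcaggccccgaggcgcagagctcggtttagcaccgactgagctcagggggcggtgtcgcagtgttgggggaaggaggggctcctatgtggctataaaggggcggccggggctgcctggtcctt

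The other proteoglycan-cutting ADAMTS genes did not follow Adamts1 past the threshold. Adamts4, an aggrecanase, stood at 4.14, 4.33, 4.08 and 4.03 in untreated arrays 1 to 4 and at 4.33, 3.93, 3.96 and 4.08 in KCl arrays. The groups overlapped, and its log2 change of -0.07 had a 95% fold interval of 0.791 to 1.15. Adamts5, the other main aggrecanase, had a log2 change of 0.14 and a fold interval of 0.869 to 1.39. Adamts20 stood at 5.43, 4.29, 4.25 and 4.25 in untreated and 4.46, 3.84, 4.16 and 4.06 in KCl arrays, so that untreated array 1 was far above the rest (log2 change -0.43, limma adjusted p = 0.638). Adamts9 was high in both arrays numbered 1, at 7.40 and 7.29, and between 5.41 and 6.15 in the other 6, whatever the treatment. Of these 7 genes, none passed without the block and 1, Adamts1, had an unadjusted p under 0.05.

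Among the 11 remaining ADAMTS genes none passed, and 1 had an unadjusted limma p under 0.05. Adamts6 encodes a secreted protease of this family. It read 5.99, 4.68, 4.71 and 4.60 in untreated arrays 1 to 4 and 6.12, 5.22, 5.28 and 5.35 in KCl arrays. Both arrays numbered 1 were high, and each KCl value exceeded the untreated value of its number. With all arrays its log2 change was 0.50 (SE 0.337, limma adjusted p = 0.658, 0.0825 with the block). Without both arrays numbered 1 it was 0.62 and passed in limma (adjusted p = 0.0309). Adamts10, linked to the microfibrils of connective tissue, lay lower in all KCl arrays, at 4.28, 4.07, 4.25 and 4.19 against 4.35, 4.58, 4.59 and 4.47. That difference was small, at -0.30 (SE 0.093), and did not pass (limma adjusted p = 0.176). Adamts16 had a log2 change of -0.19. Adamts3, a procollagen N-proteinase that also cuts reelin, had one of -0.12 and stood at 8.71 to 9.12 in the untreated arrays other than number 1, which read 8.33.

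**Figure D2:**
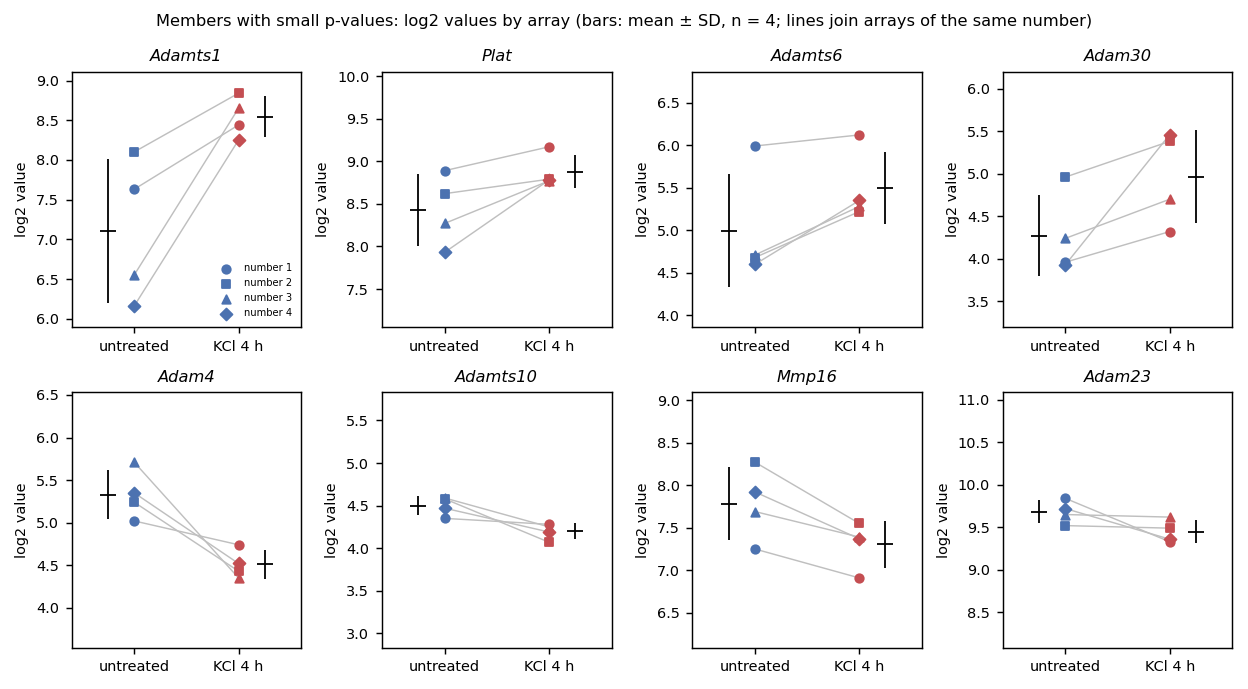
Log2 values of 8 members among the smallest p-values, with untreated arrays in blue and KCl arrays in red, a marker shape for each array number, grey lines between arrays of the same number and bars for the mean ± SD (n = 4). All 4 KCl values of Adamts1 lie above its untreated values, those of Adam4 and Adamts10 lie below, and the groups overlap for the other 5.

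Adam4, the gene that passed without the block, belongs to a set of ADAMs best known from testis or epididymis. It fell from 5.02, 5.24, 5.71 and 5.35 in untreated arrays to 4.74, 4.43, 4.35 and 4.52 in KCl arrays. The groups did not overlap, and the fold was 0.567 with a 95% interval of 0.442 to 0.727 (limma adjusted p = 0.0365). All its KCl values lay below the median gene's mean of 4.76, where RMA compresses differences. With the block it missed the threshold (adjusted p = 0.0525), as it did after centring each array on its median (0.0518). Its call was also lost without any one of untreated replicate 2, 3 or 4 or KCl replicate 2, 3 or 4 (adjusted p of 0.0667 to 0.114). It held without untreated replicate 1 or KCl replicate 1, and with the block it was regained without the pair numbered 1 (adjusted p = 0.041).

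Of the 21 ADAMs of that kind, Adam4 fell, none rose and 20 did not pass, and 20 of the 21 were at or below the median gene in mean. Adam30 read 3.96, 4.96, 4.24 and 3.93 in untreated and 4.32, 5.38, 4.70 and 5.46 in KCl arrays, higher in 4 of 4 pairs with overlapping groups (log2 change 0.69, limma adjusted p = 0.405). Adam6b, whose probes may also read its near-identical copy Adam6a, lay slightly lower in all KCl arrays (log2 change -0.15, adjusted p = 0.516). The log2 change was 0.11 for the fertilin subunit Adam2, -0.21 for Adam20, 0.10 for Adam25 and -0.19 for Adam29, each with overlapping groups.

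The ADAM proteases of broad expression include the 2 main sheddases, Adam10, the constitutive alpha-secretase of the amyloid precursor protein and a Notch protease, and Adam17, which releases TNF and EGF receptor ligands. Adam10 read 8.88, 9.13, 9.07 and 8.99 in untreated and 8.97, 9.15, 9.04 and 9.22 in KCl arrays. These values overlapped closely, and the 95% interval of the fold was 0.908 to 1.23 around 1.06. Adam17 read 7.10, 6.81, 6.23 and 6.80 in untreated and 7.26, 7.24, 6.79 and 6.41 in KCl arrays, a fold of 1.14 with an interval of 0.78 to 1.67. Adam9, another sheddase, stood at 9.08 to 9.26 in the arrays numbered 1 and 2 and at 8.63 to 8.85 in those numbered 3 and 4, in both groups. Adam15 had a log2 change of 0.06 and Adam33 one of 0.15. None of these 9 genes passed in limma, with or without the block, and none had an unadjusted p under 0.05.

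Adam11, Adam22 and Adam23 lack a working protease site and act as neuronal surface proteins, the last 2 as receptors of the secreted synaptic protein LGI1. Adam23 read 9.84, 9.52, 9.65 and 9.72 in untreated and 9.33, 9.49, 9.62 and 9.36 in KCl arrays, lower in 4 of 4 pairs although the groups overlapped. Its fold was 0.852 with a 95% interval of 0.72 to 1.01 (limma adjusted p = 0.413). Adam22 read 9.30 and 9.55 in the arrays numbered 1 and 9.89 to 10.00 in the other 6, with a fold interval of 0.768 to 1.34 for KCl. Adam11 had a log2 change of -0.29 (interval -0.89 to 0.31). None of the 3 passed, and none had an unadjusted limma p under 0.05.

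The 6 membrane-type MMPs hold their active site at the cell surface. None passed in limma, with no unadjusted p under 0.05 without the block and 2 with it. Those 2 were the neural forms Mmp16 and Mmp24. Mmp16 read 7.25, 8.27, 7.69 and 7.92 in untreated and 6.91, 7.55, 7.39 and 7.37 in KCl arrays. The groups overlapped, but each KCl value was below the untreated value of its number. Its fold was 0.718 with a 95% interval of 0.504 to 1.02 (limma adjusted p = 0.428, 0.0669 with the block). Mmp24, known for cutting N-cadherin, read 8.14, 8.52, 8.54 and 8.06 in untreated arrays and between 7.88 and 8.22 in KCl arrays, again lower in 4 of 4 pairs. Its fold was 0.833 with an interval of 0.666 to 1.04 (adjusted p = 0.523, 0.226 with the block). Mmp14, the activator of Mmp2, ranged from 5.82 to 8.44 in untreated and from 6.34 to 7.82 in KCl arrays, and its interval of 0.39 to 2.07 was among the widest of the set. Mmp23 had a log2 change of 0.11.

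Plat and Plau encode the plasminogen activators tPA and uPA, serine proteases that release plasmin. Plat read 8.89, 8.62, 8.27 and 7.93 in untreated and 9.17, 8.79, 8.77 and 8.78 in KCl arrays. Each KCl value was above the untreated value of its number, but KCl arrays 2 to 4 fell below untreated array 1. The means were 8.43 ± 0.421 and 8.88 ± 0.194 (SD, n = 4 each), a fold of 1.37 with a 95% interval of 0.985 to 1.9 (limma adjusted p = 0.413, 0.137 with the block). Plau read 4.31, 4.32, 4.11 and 4.15 in untreated and 4.10, 4.46, 4.26 and 4.53 in KCl arrays, below the median gene throughout, with a fold interval of 0.9 to 1.31. Neither gene passed, and neither had an unadjusted limma p under 0.05 without the block.

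None of the 16 secreted MMPs passed in limma, and none had an unadjusted p under 0.05 with or without the block. Mmp9, the gelatinase best known for its part in synaptic plasticity, read 4.20, 3.89, 4.33 and 4.13 in untreated and 4.01, 4.11, 4.06 and 4.10 in KCl arrays. These values lay below the median gene's mean of 4.76, and the 95% fold interval was 0.806 to 1.13. Mmp3, stromelysin-1, had an interval of 0.88 to 1.19 and a mean below that of the median gene. Mmp8, the neutrophil collagenase, read slightly lower in all KCl arrays (3.63 to 3.84, against 3.84 to 3.91, before rounding, log2 change -0.14, limma adjusted p = 0.581). Mmp2, the other gelatinase, and Mmp19 were the only secreted MMPs brighter than the median gene.

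Of the MMP genes, 10 lie near one another on mouse chromosome 9 in the RefSeq table, and 8 of them have TGANTCA in the 250 bases before their annotated start. That motif, read on both strands, which are the same by its symmetry, is held by 6.75% of the 32851 RefSeq promoter windows of that length. Of the 80 genes, 48 had a RefSeq promoter and 12 held the motif (25%, against 7.82% of all genes with a promoter). Of these 12, 8 were those neighbours on chromosome 9, so the 25% rests mostly on that group of adjacent genes. The other 4 were Adam19, Adam20, Adam25 and Adam29, and the neighbours without it were Mmp8 and Mmp27. TGACGTCA was in none of the 48 and in 1.55% of all windows. Of 6 genes of AP-1 factors, 4 rose after KCl in limma and 5 with the block, against 1.34% and 2.43% of all named genes. Fos went from 6.22 ± 0.674 to 10.41 ± 0.109, Fosb from 5.10 ± 1.001 to 10.52 ± 0.275 and Junb from 6.06 ± 0.303 to 8.92 ± 0.155 (SD, n = 4 each, limma adjusted p of 0.00054, 0.00107 and 0.000166), and Fosl2 rose 3.32-fold (0.00169). Jun was 2.32-fold higher (adjusted p = 0.0586, 0.0243 with the block), and Jund, which passed in neither fit, 1.74-fold (0.0981 and 0.0522). The 8 sequences below are shown because they carry this motif while their genes read low in both groups. Each is the 100 bases before the start in GRCm38.p6, with TGANTCA in capitals. The motif begins 35 bases before the start in Mmp13 and 95 bases before it in Mmp20, with the other 6 between. In order, they lie at chr9:7464041-7464140, chr9:7388027-7388126 (minus strand), chr9:7445722-7445821, chr9:7691990-7692089, chr9:7502242-7502341, chr9:7347274-7347373, chr9:7272414-7272513 and chr9:7628131-7628230, on the plus strand unless stated.
Mmp1a: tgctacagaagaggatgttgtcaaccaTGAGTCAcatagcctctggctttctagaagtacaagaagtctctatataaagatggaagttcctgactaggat
Mmp1b: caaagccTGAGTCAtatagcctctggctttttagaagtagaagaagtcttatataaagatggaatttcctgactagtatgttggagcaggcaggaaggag
Mmp3: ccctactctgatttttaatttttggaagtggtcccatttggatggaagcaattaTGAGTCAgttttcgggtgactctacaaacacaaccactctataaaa
Mmp7: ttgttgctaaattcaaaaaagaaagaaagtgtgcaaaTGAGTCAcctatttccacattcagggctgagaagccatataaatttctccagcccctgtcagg
Mmp10: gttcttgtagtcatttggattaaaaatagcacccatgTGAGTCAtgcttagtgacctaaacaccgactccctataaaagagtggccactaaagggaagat
Mmp12: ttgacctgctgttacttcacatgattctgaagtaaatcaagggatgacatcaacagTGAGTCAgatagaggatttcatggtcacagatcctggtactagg
Mmp13: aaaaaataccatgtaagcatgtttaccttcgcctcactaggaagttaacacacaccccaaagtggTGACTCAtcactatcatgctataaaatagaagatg
Mmp20: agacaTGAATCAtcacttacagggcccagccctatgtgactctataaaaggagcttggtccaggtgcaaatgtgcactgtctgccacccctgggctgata

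Over all 8 arrays the values of these 8 genes ran from 3.45 to 5.22, and each gene's mean was below that of the median gene. Their log2 changes ran from -0.25 for Mmp12, the macrophage elastase, to 0.11 for the collagenase Mmp1b, with a median of -0.07. None passed, the smallest limma adjusted p being 0.692, and the KCl and untreated values overlapped for each. The highest upper bound of their 95% fold intervals was 1.33. Mmp12 read 4.75, 5.22, 4.68 and 4.70 in untreated and 4.41, 4.59, 4.34 and 5.00 in KCl arrays. The matrilysin Mmp7 had a log2 change of -0.09, as had the stromelysin Mmp10 and the collagenase Mmp1a, the collagenase Mmp13 one of -0.05 and the enamel protease Mmp20 one of 0.05. Such values lie where RMA compresses differences, so they cannot tell an absent transcript from a rare one, and Mmp1a and Mmp1b are close copies whose probes may read both. The motif match describes these letters and does not show binding.

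The inhibitors were all brighter than the median gene, and none of the 5 passed in limma; none had an unadjusted p under 0.05 without the block and 1 had with it. Timp2 barely varied, at 11.17, 11.20, 11.17 and 11.04 in untreated and 11.36, 11.25, 11.03 and 11.05 in KCl arrays, with a 95% fold interval of 0.866 to 1.19. Timp1, the inducible member of the family, read 4.81, 5.86, 4.62 and 4.90 in untreated and 4.81, 5.17, 5.07 and 4.82 in KCl arrays, with an interval of 0.631 to 1.41. Timp4 read 6.88, 6.47, 6.05 and 6.65 in untreated and 6.87, 6.49, 6.20 and 6.51 in KCl arrays, so that same-numbered arrays were nearly equal.

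Timp3, which binds to the matrix and also inhibits ADAM17 and the aggrecanases, read 10.18, 9.66, 8.07 and 8.22 in untreated and 10.32, 10.08, 8.65 and 8.60 in KCl arrays. The 4 arrays numbered 1 and 2 were high and the 4 numbered 3 and 4 low in both groups, while every KCl value was a little above its untreated partner. The fold for KCl was 1.3 with an interval of 0.514 to 3.3 (adjusted p = 0.91, 0.117 with the block). Reck, an inhibitor of Mmp9, Mmp2 and Mmp14 that is needed for vessel formation in the brain, read 6.02, 6.33, 4.88 and 4.71 in untreated and 7.32, 6.46, 4.93 and 4.66 in KCl arrays, with an interval of 0.47 to 3.48. Mmp2 read 6.08, 5.70, 4.32 and 4.38 in untreated and 5.88, 5.91, 4.70 and 4.63 in KCl arrays, with an interval of 0.518 to 2.41. For all 3 genes the arrays numbered 1 and 2 lay above those numbered 3 and 4 without overlap, whatever the treatment. The labels do not give this split of the array numbers. The share of all named genes that separate so is not given here. Intervals this wide hold both a rise and a fall.

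**Figure D3:**
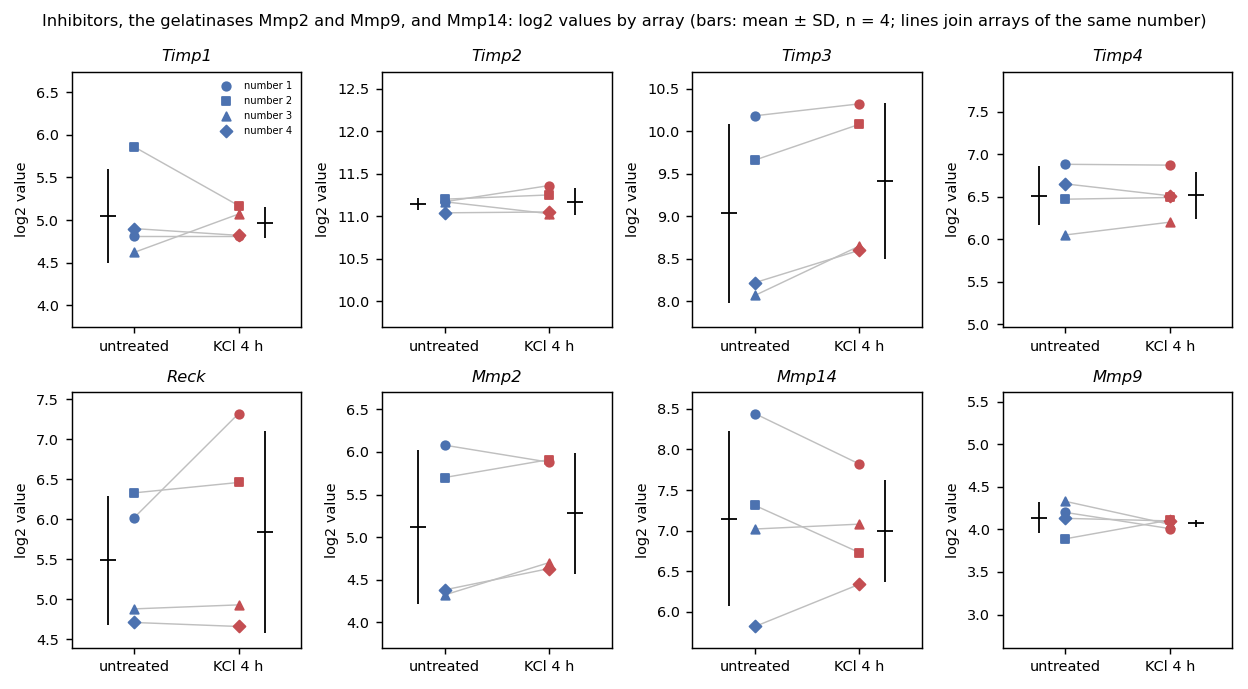
Log2 values of the 5 inhibitors, the gelatinases Mmp2 and Mmp9, and Mmp14, with untreated arrays in blue and KCl arrays in red, a marker shape for each array number, grey lines between arrays of the same number and bars for the mean ± SD (n = 4). Timp3, Reck and Mmp2 separate by array number, not by KCl, and Timp2 spans only 11.03 to 11.36.

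Array number accounted for more of the variation than KCl in 68 of the 80 genes, and in 16969 of all 22180. The sum of squares of each gene's 8 values was split into a part between KCl and untreated, a part between array numbers, which has 3 degrees of freedom against 1, and a remainder. With more degrees of freedom, the array number part is the larger for most genes even where neither has an effect. The counts above therefore show no effect of array number by themselves. The median share of the KCl part was 7.38% over the 80 and 10.7% over all named genes, and that of array number 46.5% and 46.8%. Among the 27 brighter members the medians were 4.48% for KCl and 68.8% for array number, against 13.6% and 50.6% over the brighter named genes. More than 80% of the variation lay between array numbers for 19 of the 80 genes (23.8%) and for 13.6% of all named genes. The share was 96.4% for Mmp2 and for Timp4, 94.4% for Timp3, 93.9% for Adamts9, 90.3% for Adam9 and 87.8% for Reck. KCl took 79.9% for Adam4 and 61% for Adamts1. These shares describe the 8 arrays and were not tested.

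**Figure D4:**
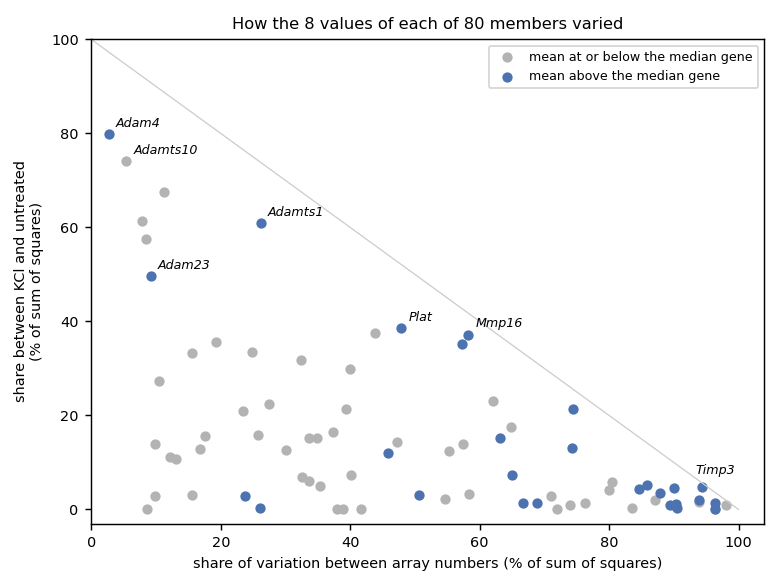
Share of each gene's sum of squares that lay between array numbers (x axis, %) and between KCl and untreated arrays (y axis, %), one point per member gene, in blue where its mean was above that of the median gene. Adam4 at 79.9% and Adamts1 at 61% lie high on the KCl axis, and Timp3 at 94.4% is among the blue points at the right end of the array number axis.

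Some markers of other cell types also differed between array numbers. The mean over 12 markers of pericytes, fibroblasts and meninges was 5.39 to 5.60 on the arrays numbered 1 and 2 and 4.53 to 4.65 on those numbered 3 and 4. By group it ran from 4.53 to 5.60 in untreated and from 4.58 to 5.45 in KCl arrays. For 6 of the 12 all arrays numbered 1 and 2 lay above all those numbered 3 and 4, and the fold between them ran from 0.89 for Dcn to 16.5 for Acta2. Of the 12, 5 were brighter than the median gene, and among these Acta2, smooth muscle actin, read 10.79 to 11.07 on the arrays numbered 1 and 2 and 6.59 to 7.18 on the others. Tagln, another smooth muscle gene, read 7.11 to 8.22 and 4.24 to 4.79. The mean over 10 endothelial markers was 4.12 to 4.70 in untreated and 4.17 to 4.71 in KCl arrays, with 2 brighter than the median gene: Kdr, a VEGF receptor, at 7.76 to 8.34 and 5.18 to 5.62, and the transporter Slco1a4 at 7.58 to 8.26 and 4.60 to 4.87, in the same order of array numbers. The other 8 overlapped between array numbers, and 6 of the 10 had a fold below 1 for numbers 1 and 2 over 3 and 4, with Pecam1 lowest at 0.814. The defining collagens Col1a1, Col1a2 and Col3a1 and the endothelial markers Pecam1, Cdh5 and Cldn5 were at or below the median gene. Of these collagens only Col1a1 separated by array number, at 4.75 to 5.33 on numbers 1 and 2 and 3.96 to 4.30 on the others. No marker of these 2 lists passed between KCl and untreated arrays. The astrocyte mean was 9.28, 8.80, 8.59 and 8.36 on untreated arrays 1 to 4 and 9.03, 8.59, 8.57 and 8.37 on KCl arrays 1 to 4. All 10 astrocyte markers had a fold above 1 for numbers 1 and 2 over 3 and 4, up to 1.96 for the gap junction gene Gja1, and 3 of them did not overlap. The neuron mean was 8.77 to 9.19 on the arrays numbered 1 and 2 and 9.37 to 9.56 on those numbered 3 and 4, and 11 of 12 neuron markers had a fold below 1. For these marker counts too, the share of all named genes without overlap between these array numbers is not given here. The part of any of these cells in the values of Timp3, Reck, Mmp2 and Adamts1 was not tested.

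Other genes of the same system were taken as 6 lists, 115 of whose 121 genes were measured. After KCl 2 of these rose, none fell and 113 did not pass in limma, which is 1.74% against the 2.36% of all named genes given above. At an unadjusted p under 0.05 there were 12, or 10.4% against 13% of all named genes. Of the 115, 81 were brighter than the median gene. Among the brighter named genes 4.46% passed and 21.1% had an unadjusted p under 0.05. Both genes that rose were among 35 shed or cut surface proteins and ligands, 5.71% of that list. Hbegf, an EGF receptor ligand released by ADAM17 and other ADAMs, read 7.73, 7.95, 7.43 and 7.25 in untreated and 9.87, 10.20, 9.37 and 9.12 in KCl arrays. All KCl values were higher, by 4.14-fold with a 95% interval of 2.78 to 6.17 (adjusted p = 0.00662). Efnb2, the guidance ligand ephrin-B2, rose from 8.71, 8.65, 9.11 and 8.97 to 9.71, 9.73, 10.00 and 9.68, again without overlap (1.89-fold, interval 1.54 to 2.33, adjusted p = 0.0124). Both passed in each of the 8 fits with 1 array left out. Of the 35 genes, 28 were brighter than the median gene and 9 (25.7%) had an unadjusted limma p under 0.05. Those 9 went both ways: Hbegf, Efnb2, Nrg1, Jag1 and Bdnf were higher. Nlgn3 (log2 change -0.45, without overlap), Aplp1 (-0.34), Lgi1 (-0.33) and Dll1 (-0.27) were lower, and none of these passed with or without the block.

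With the array number as a block 5 of the 115 passed, or 4.35% against 4.44% of all named genes and 8.37% of the brighter named genes. All were higher: Hbegf, Efnb2, the ErbB ligand Nrg1, the Notch ligand Jag1 and the matrix glycoprotein Tnc. Nrg1, which is cut by ADAMs and by BACE1, read 8.49, 8.42, 7.55 and 7.62 in untreated and 9.81, 9.59, 9.04 and 8.77 in KCl arrays. Its 2.43-fold difference had an interval of 1.51 to 3.9 (adjusted p = 0.0733, 0.00303 with the block), and both Nrg1 and Jag1 were chosen after their values were seen. Jag1 read 4.13, 4.69, 4.68 and 4.28 in untreated and 4.46, 5.66, 5.76 and 5.76 in KCl arrays (adjusted p = 0.177, 0.0375 with the block). KCl array 1 alone lay within the untreated range, and without it Jag1 passed without the block (adjusted p = 0.0117). Its call with the block held without the pair numbered 1 (adjusted p = 0.0257) and was lost without each other pair (0.104 to 0.155). Tnc, tenascin-C, read 7.69, 8.14, 7.47 and 6.90 in untreated and 8.36, 8.62, 8.88 and 8.46 in KCl arrays, all higher than untreated (2.04-fold, interval 1.38 to 3.02, limma adjusted p = 0.0787, 0.0421 with the block). The call of Tnc with the block held without the pair numbered 2 (adjusted p = 0.0491) and was lost without each other pair. Without untreated replicate 2, Tnc also passed without the block (adjusted p = 0.0473). That of Efnb2 was lost without the pair numbered 3 (adjusted p = 0.0608).

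**Figure D5:**
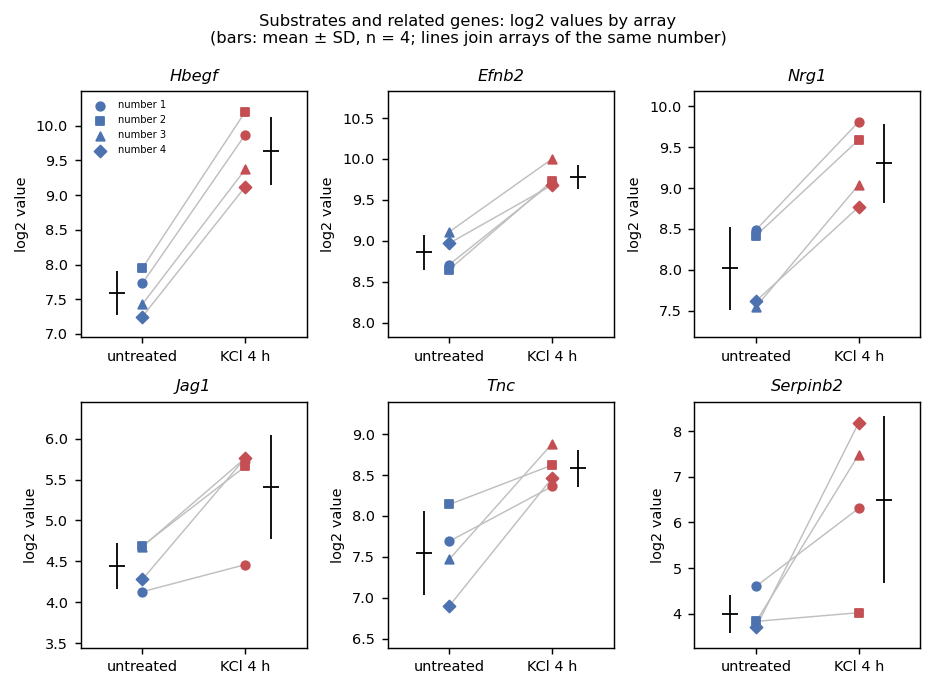
Log2 values of 6 substrates and related genes, with untreated arrays in blue and KCl arrays in red, a marker shape for each array number, grey lines between arrays of the same number and bars for the mean ± SD (n = 4). The KCl values of Hbegf, Efnb2, Nrg1 and Tnc all lie above the untreated values, and Serpinb2 reads 6.31 to 8.19 in 3 KCl arrays and 4.02 in KCl array 2.

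The remaining lists had no gene past the threshold in limma. Of 10 genes of the plasmin system, 1 had an unadjusted p under 0.05, Serpinb2, which encodes the plasminogen activator inhibitor PAI-2. It read 4.60, 3.83, 3.82 and 3.70 in untreated and 6.31, 4.02, 7.49 and 8.19 in KCl arrays, a fold of 5.72 with a 95% interval of 1.64 to 20 (adjusted p = 0.183). Without KCl replicate 2 its log2 change was 3.34 and passed (adjusted p = 0.0148). Serpina3n, a serine protease inhibitor of reactive astrocytes, was lower in 4 of 4 pairs (log2 change -0.36, adjusted p = 0.636). None of 14 astacins and membrane peptidases had an unadjusted p under 0.05, with Mep1a at -0.22 and Mep1b at 0.14. Nor had any of 8 genes in a list of ADAMTS-like proteins and the ADAM-like Adamdec1, with Adamdec1 at 0.20 and Thsd4 at -0.19. Among 22 activators, chaperones and other inhibitors the proprotein convertases Pcsk7 (-0.54, adjusted p = 0.397) and Pcsk6 (0.41, adjusted p = 0.555) had the smallest p-values, and none was under 0.05 unadjusted. In the matrix list of 26 genes, 2 were under 0.05 unadjusted, Tnc and the laminin chain Lamb1 (log2 change 0.29, adjusted p = 0.36).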

How the data were processed

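RNA from 8 cultures was measured on 8 Affymetrix whole-transcript arrays. The authors deposited 1 log2 value per probe set and array. The submitters' processing notes name RMA and Partek, with no version or settings; a batch adjustment is neither stated nor denied. RMA compresses differences near background, and the number of arrays limits the precision. The platform annotation gave 23521 of 34472 probe sets 1 symbol and 1814 several. Genes were named from the former alone, and all 80 members matched the RefSeq gene table.

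All 22180 genes entered 1 fit (lmFit, then eBayes, of limma 3.58.1, R 4.3.3; two-sided; Benjamini-Hochberg; threshold 0.05), which gave moderated standard errors and 95% intervals. Genes named by rule were members past the threshold with or without the block, the 20 members of smallest p, 20 known for neural roles, related genes past the threshold and the 2 of smallest p in each list. That gave 36 members and 12 related genes. A further 14 were chosen after their values were seen: Mmp1a, Mmp1b, Mmp7, Mmp10, Mmp13, Mmp20, Mmp11, Mmp19, Adamts9, Adamts3, Adam9, Adam15, Nrg1 and Jag1. Bdnf, Nlgn3, Lgi1, Aplp1 and Dll1 were named only for an unadjusted p under 0.05. They are left out of the counts of outlying arrays and sign changes. Members, lists and roles were chosen with earlier results of these data known.

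Array numbers were taken to pair arrays from the data: deviations from group means correlated, across genes, at 0.64, 0.23, 0.41 and 0.37 for the 4 same-numbered pairs, and at most 0.30 otherwise. Mouse numbers all differ, but given this resemblance the cultures may not be independent. P-values measure the spread between these cultures, with the variation between array numbers included without the block and removed with it. On simulated data (10 draws over 22180 genes of KCl against untreated, 200 changed) 75.7% of log2 changes of 1 were recovered and 5.11% of calls were false. Alternatives were the block, no arrays numbered 1, repeated quantile normalization, median centring, brighter genes, mean probe sets, trended and robust eBayes, array weights and leaving arrays out. Leaving out pairs within the block was added after seeing the data. Figures used matplotlib 3.10.9.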

Additional observations from a re-analysis of the deposited data

Results flagged for a closer look

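In groups of 4 arrays, 13 of 124 groups of the named genes had 1 array far from the other 3. Chance alone does so in about 1 of 20 groups if these are independent, normally distributed and not chosen by their values. The groups here share the same 8 arrays, and the rule named some genes by their p-values, so that rate does not describe them. Of the 13, 3 of 28 belong to genes chosen after their values were seen (Mmp11, Adamts9 and Jag1) and 10 of 96 to genes named by rule. Untreated array 1 read high for Adamts20 (5.43, others 4.25 to 4.29), Adamts6 (5.99, others 4.60 to 4.71), Mmp11 (5.43, others 4.09 to 4.24), Adamts9 (7.40, others 5.41 to 5.73) and the related gene Serpinb2 (4.60, others 3.70 to 3.83), and low for Adam22 (9.30, others 9.93 to 10.00). KCl array 1 read high for Adamts6 (6.12, others 5.22 to 5.35) and Plat (9.17, others 8.77 to 8.79), and low for Jag1 (4.46, others 5.66 to 5.76). Elsewhere, untreated array 2 read high for Mmp12 (5.22, others 4.68 to 4.75) and untreated array 3 for Mmp3 (4.20, others 3.92 to 3.95). KCl array 3 read low for Adam29 (3.66, others 4.02 to 4.05) and high for Efnb2 (10.00, others 9.68 to 9.73). Over all genes both arrays numbered 1 stood apart on the first principal component, at -48.6 and -43.2 against -4.58 to 26.6 for the other 6.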

How the results depend on the processing

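With the replicate block, 1 member rose (Adamts1) and 0 fell, 5 related genes rose, and 539 of all named genes rose and 446 fell. Without both arrays numbered 1, 1 member rose (Adamts6). With arrays centred on medians 0 members fell, and with trended and robust eBayes 150 of all named genes fell. With single arrays left out, 0 members rose and 0 to 1 fell, 2 to 4 related genes rose, and 118 to 254 of all named genes rose and 68 to 247 fell. With a pair left out of the fit with the block, 0 members rose and 0 to 1 fell, 2 to 5 related genes rose, and 119 to 306 of all named genes rose and 27 to 237 fell (81 without the pair numbered 4). Genes that never passed changed sign as follows: Mmp3 (-0.0044 without both arrays numbered 1, -0.0034 with array weights), Mmp14 (0.0016), Timp2 (-0.03), Adam22 (-0.06) and Mmp19 (-0.10), the last 4 without both arrays numbered 1, Adam22 (-0.03) and Adam9 (-0.02) with quantile normalization repeated, Adam22 (-0.02) with array weights, and Mmp11 (-0.03) with the mean of its probe sets. With single arrays left out, the log2 change ran from -0.05 to 0.16 for Adam15, -0.15 to 0.11 for Adam22, -0.05 to 0.16 for Adam9, -0.26 to 0.04 for Adamts3, -0.14 to 0.64 for Adamts9, -0.19 to 0.42 for Mmp11, -0.13 to 0.0026 for Mmp13, -0.60 to 0.28 for Mmp14, -0.09 to 0.31 for Mmp19, -0.11 to 0.48 for Mmp2, -0.15 to 0.00084 for Mmp9, -0.14 to 0.75 for Reck, -0.23 to 0.19 for Timp1, -0.04 to 0.07 for Timp2 and -0.15 to 0.13 for Timp4. With a pair left out of the fit with the block, it ran from -0.10 to 0.17 for Adam15, -0.06 to 0.06 for Adam22, -0.16 to 0.04 for Adamts4, -0.04 to 0.27 for Adamts5, -0.38 to 0.0016 for Mmp14, -0.10 to 0.31 for Mmp19, -0.02 to 0.25 for Mmp1b, -0.02 to 0.13 for Mmp3, -0.16 to 0.01 for Mmp7, -0.16 to 0.0046 for Mmp9, -0.26 to 0.12 for Timp1, -0.03 to 0.08 for Timp2 and -0.04 to 0.05 for Timp4 (-0.0013 without the pair numbered 2). The cause of these changes was not tested. Signal over background could not be assessed, since scanner files were not used here, which limits what the 53 dim genes can show.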

Other observations

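Of the 80 genes, 6 had a second probe set. Its log2 change had the other sign for Mmp11 (-0.16, against 0.10 for the probe set used), Adam19 (0.04 against -0.05), Adamts8 (-0.12 against 0.16) and Adamts14 (-0.02 against 0.02). It had the same sign for Mmp7 (-0.03 against -0.09) and was 0.00 for Adam15. A further 3 probe sets were annotated to a gene of these families and to another gene together, and were left out. The probe set of Mmp24 and BC029722 had means of 4.90 in untreated and 4.98 in KCl arrays, and both probe sets of Adam34 and Gm5347 had means of 3.63 and 4.78 in untreated and 3.51 and 4.39 in KCl arrays.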
